A study of Mus musculus with 2 samples.

Results

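Mature B cells are the lymphocytes that have finished assembling an antigen receptor and carry it on their surface as immunoglobulin M and immunoglobulin D. In the olfactory epithelium libraries studied here, 180 of 8298 kept cells were such cells, 65 of 3032 in library 1 and 115 of 5266 in library 2. They were chosen by their transcripts: at least 2 unique molecular identifiers (UMIs, each standing for a captured RNA molecule) of the receptor signalling chains Cd79a and Cd79b together, at least 1 of Ighd, the constant part of immunoglobulin D, or of Ms4a1, which encodes CD20, and 0 of the surrogate light chain genes Vpreb1, Vpreb3 and Igll1 and of the T cell receptor chains Cd3d, Cd3e and Cd3g. The levels of these genes in the members are therefore a description of the choice, and no test rests on them.

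The tissue was the olfactory epithelium of a male C57BL/6 mouse in which a single naris was occluded at postnatal day 14, and both sides of the nose were sampled at postnatal day 28. Each side gave 1 library, the labels describe a single mouse, and the dissociated cells had been frozen and passed through dead cell removal before capture on the Chromium 3' v3 system. The deposited matrix joins both libraries under the barcode suffixes 1 and 2. No label ties a suffix to a side, so the libraries are called library 1 and library 2 and neither is assigned to the closed or the open side. With 1 library per side there is no replicate, and no difference below has a p-value; the intervals are exact 95% intervals, binomial for shares of cells and Poisson for levels, and cover counting error only. Beside a share of 0, the limit given is that of 3 cells, and it bounds cells with a UMI, not cells that express the gene.

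B cells form in the bone marrow, where precursors pair a rearranged heavy chain with the surrogate light chain, divide, and then rearrange a kappa or a lambda light chain gene. Cells that leave for the blood lose the recombination enzymes and the surrogate light chain, gain immunoglobulin D, and present antigen on major histocompatibility complex (MHC) class II molecules. They then circulate between blood and lymphoid tissue, and some are found in mucosal tissue such as the lining of the nose. Fewer cells of a type and less RNA per cell cannot be told apart in summed counts, so levels are given as counts per 1000000 UMIs of the cells summed (CPM) beside shares of cells.

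The members were small cells by their RNA. They held 400926 UMIs in all, 175486 in library 1 and 225440 in library 2, with a median of 1549 UMIs and 730 genes per cell, against 5289.5 UMIs and 2224.5 genes over all kept cells. B precursors, defined as cells with at least 2 Cd79a or Cd79b UMIs, at least 1 surrogate light chain UMI and no Cd3 UMI, numbered 348 and had a median of 1525 UMIs, close to that of the members. The 121 T cells (at least 2 Cd3 UMIs and no Cd79a or Cd79b UMI) had a median of 2435 UMIs. The 2466 sustentacular cells (at least 3 UMIs of Cyp2g1 and none of Cd79a or Cd79b), the supporting cells of the epithelium, served to show free RNA and had a median of 7013.5 UMIs. Of 12 barcode sequences present in both libraries, none belonged to a member.

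Mature B cells made up nearly the same share of both libraries under the filters used, whereas B precursors did not. The share of mature B cells was 2.14% (1.66% to 2.72%) in library 1 and 2.18% (1.81% to 2.62%) in library 2, a ratio of 1.02. With at most 5% mitochondrial UMIs allowed per cell the shares were 3.24% and 2.09%, so their order depends on that filter. B precursors made up 2.04% (1.57% to 2.61%) of library 1 and 5.43% (4.83% to 6.08%) of library 2, a ratio of 2.66 with intervals that do not overlap. Mature cells were thus 51.2% of the mature and precursor cells together in library 1 and 28.7% in library 2. Of the precursors, 4 of 62 in library 1 and 70 of 286 in library 2 were possible doublets, as defined below. Without these, precursors made up 1.91% (1.46% to 2.47%) of library 1 and 4.10% (3.58% to 4.67%) of library 2. T cells, at 1.29% and 1.56%, had overlapping intervals. Side of the nose, dissection, freezing and dead cell removal cannot be told apart with 1 library per side.

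**Figure D1:**
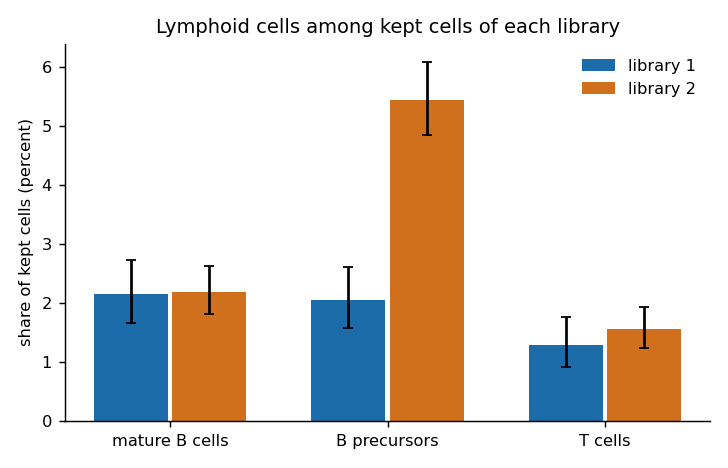
Share of kept cells (percent) that were mature B cells, B precursors or T cells, with bars for library 1 and library 2 and exact 95% binomial intervals as error bars. The bars for mature B cells are level at 2.14% and 2.18%, while B precursors reach 2.04% and 5.43%.

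The genes used in the rule were well above its limits in most members. Ighd and Ms4a1 were both present in 78 members, Ighd alone in 69 and Ms4a1 alone in 33, and 39 members entered on a single UMI of either gene. The Cd79a and Cd79b sum was exactly 2 in 3 members. Just outside the rule, 5 cells had a Cd79a and Cd79b sum of 1, and 55 cells met every condition except that they held 1 surrogate light chain UMI. Those 55 cells count among the 348 precursors. Their Cd74 level was 10931 CPM, beside 10895 CPM in the members, so the border to the precursors is not a gap in this gene. Another 37 cells with enough Cd79a and Cd79b UMIs had neither Ighd nor Ms4a1, and their Igkc level of 16759 CPM and Cd74 level of 1586 CPM lay above and below those of the members.

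B lineage genes that the rule did not use were present throughout the members. Cd74, the invariant chain of MHC class II, was found in all 180. Ebf1, a transcription factor that sets B cell identity, was found in 95% of members, and Cd37, a tetraspanin of mature lymphocytes, in 83.9%. The T cell receptor genes Trbc1 and Trbc2, the co-receptors Cd4, Cd8a and Cd8b1, and the natural killer genes Ncr1 and Klrb1c had no UMI in any member. The other 4 T and natural killer cell genes of that list, Trac, Lck, Nkg7 and Gzma, held 29 UMIs in 13 members. A single member held 16 of these UMIs. Apart from these 4 genes, none of the markers named here went against the label of mature B cells.

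Some members also held RNA of other cell types. Members with at least 3 UMIs of the listed markers of olfactory neurons, sustentacular and gland cells, basal cells, stroma, macrophages, erythroid cells or T cells, or at least 10 of neutrophils, were counted as possible doublets, droplets that may have caught more than 1 cell. There were 28, 5 of 65 in library 1 and 23 of 115 in library 2, and they held 33.3% of all member UMIs. Of the 9 members with at least 5000 UMIs, 7 were among them, including a library 1 cell with 35018 UMIs. One library 2 member held 1152 UMIs of neutrophil markers such as S100a8 and S100a9, another 315 UMIs of macrophage markers, and a library 1 member 187 UMIs of olfactory neuron markers. Most members held few such UMIs: the median was 0 for each of these lists except the sustentacular and gland list, where it was 1. Because a few cells carry much of the RNA, levels without the 28 cells are given beside many of the results.

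**Figure D2:**
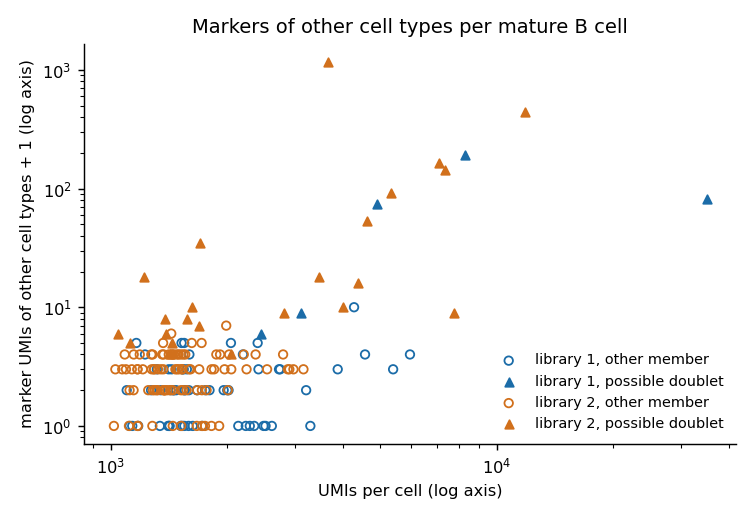
UMIs per cell (log axis) against UMIs of all listed markers of other cell types plus 1 (log axis), 1 point per mature B cell, coloured by library. The filled triangles are the 28 possible doublets, which include 7 of the 9 cells above 5000 UMIs, and the open circles are the other 152 members.

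The members were compared with B precursors, the stage before them in the same sample. A gene counted as measured with at least 10 CPM in the higher group and 50 UMIs in all, and as past 2-fold when its log2 ratio of CPM plus 1 reached 1 in size. Of 3625 measured genes, 63 (1.74%) were at least 2-fold higher in mature B cells in the pool and in each library, and 214 (5.9%) were at least 2-fold lower, with a median log2 ratio of -0.20. These shares are the background for the counts of each list, and the genes of the rule itself were left out. Without the possible doublets of both groups, 61 and 211 of 2190 genes were past 2-fold, 163 of them in the same direction in both sets, which is 58.8% of the first set and 59.9% of the second. When 1 surrogate light chain UMI was allowed in the members and precursors held 2 or more, 88 genes were higher and 211 lower. With the median of all genes at -0.20, small positive and negative ratios of single genes do not separate them from the bulk.

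Antigen presentation genes set the members apart from their precursors. MHC class II molecules are made of an alpha and a beta chain, are loaded with peptide with the help of H2-DM and H2-O proteins, and are switched on by the coactivator Ciita, which acts through factors bound to paired X and Y boxes shortly before the start of these genes. Promoter stretches of 4 of the genes described next are shown because they hold letters of these boxes: H2-Eb1, H2-DMb2 and H2-Ob have a match to both, and H2-Aa, the chain with the largest ratio, to the Y box alone. Each line gives the 150 bases just before the gene start in the direction of the gene, from RefSeq on GRCm38.p6, and the capitals mark the letters searched: the Y box TGATTGG and the partial X box AACNNATG, both looked for on both strands, with no overlap between them. The letters of the partial X box were set after these promoters had been read.
H2-Aa, chr17:34287824-34287973, minus strand: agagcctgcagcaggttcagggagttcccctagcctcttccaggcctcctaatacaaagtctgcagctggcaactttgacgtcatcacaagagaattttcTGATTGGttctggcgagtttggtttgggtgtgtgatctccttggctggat
H2-Eb1, chr17:34305717-34305866, plus strand: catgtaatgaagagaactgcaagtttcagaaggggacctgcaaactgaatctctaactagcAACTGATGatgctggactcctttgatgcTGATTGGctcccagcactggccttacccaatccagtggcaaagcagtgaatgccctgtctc
H2-DMb2, chr17:34145099-34145248, plus strand: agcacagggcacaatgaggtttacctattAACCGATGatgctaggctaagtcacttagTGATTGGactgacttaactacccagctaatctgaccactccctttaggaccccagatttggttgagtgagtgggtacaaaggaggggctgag
H2-Ob, chr17:34238755-34238904, plus strand: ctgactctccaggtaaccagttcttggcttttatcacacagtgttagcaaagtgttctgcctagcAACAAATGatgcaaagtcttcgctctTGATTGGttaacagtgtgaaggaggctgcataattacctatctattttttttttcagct

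Of the 13 genes on the MHC class II list, 8 had a RefSeq promoter entry, and 6 of the 8 held the Y box, 5 the partial X box and 4 both within the 250 bases before the start. Over all 32851 promoters in the table, 7.23% held the Y box, 7.71% the partial X box and 0.664% both in a stretch of the same length. H2-Eb1, H2-DMb2, H2-Ob and H2-DMb1 were the 4 with both. The letters of the partial X box were set after these promoters had been read. Its counts, and those of both boxes, therefore cannot be weighed against the shares of all promoters. A match is a description of letters and not of binding. Ciita, Cd74 and H2-Ab1 had no entry and are named only.

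The classical class II chains were found in nearly every member and in a minority of precursors. H2-Aa, an alpha chain, reached 3117 CPM in library 1 and 2715 CPM in library 2 in mature B cells, and 1066 and 412 CPM in precursors. Over both libraries its level was 2891 CPM (2727 to 3062) in the members, from 1159 UMIs, and 516 CPM (472 to 564) in precursors. H2-Aa was found in 97.8% of members and 32.8% of precursors, or in 90.6% and 27.0% after every cell had been thinned to 1000 UMIs, so the difference was also there at equal depth. H2-Ab1, a beta chain, stood at 2952 and 3092 CPM in the members and at 1291 and 573 CPM in precursors. H2-Eb1, the other beta chain, stood at 3556 and 3637 CPM against 1510 and 614 CPM. For each of these 3 chains the lower of the members' library levels lay above the higher of the precursors', and the precursors of library 1 lay above those of library 2. In T cells, 461 of the 465 UMIs of Cd74, H2-Aa, H2-Ab1 and H2-Eb1 came from a single cell, and in sustentacular cells H2-Aa was found in 3.93% of cells, or 0.608% after thinning.

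Genes that load and regulate the chains were also higher in the members. Cd74, which guards the empty class II groove, had a median of 24 UMIs per member in library 1 (9 to 101) and 20 in library 2 (6 to 51). Its level was 11129 and 10712 CPM in the members and 5590 and 3315 CPM in precursors, a pooled log2 ratio of 1.57 that was 0.99 in library 1 and so missed 2-fold there. The loading subunit H2-DMb2 had a log2 ratio of 2.39 and its close copy H2-DMb1 of 2.12, and reads of such copies may be split between them. H2-Ob, the beta chain of the H2-O modulator, stood at 462 and 537 CPM against 152 and 126 CPM, a log2 ratio of 1.95. Ciita itself had 125 and 106 CPM against 46.4 and 23.9 CPM, a log2 ratio of 2.02. Of the 13 genes, 11 were measured, all 11 were above 0, and 7 were at least 2-fold higher in the pool and in either library taken alone. Without possible doublets 10 of 11 were, Cd74 among them, at 14941 and 13584 CPM in the members. With 1 surrogate light chain UMI allowed in the members 9 of 11 were, and the median log2 ratio was 2.55 instead of 2.12. Cd86 and Cd40, receptors for T cell help, fell below the minimum for a measured gene, at 37.4 CPM each in the members.

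**Figure D3:**
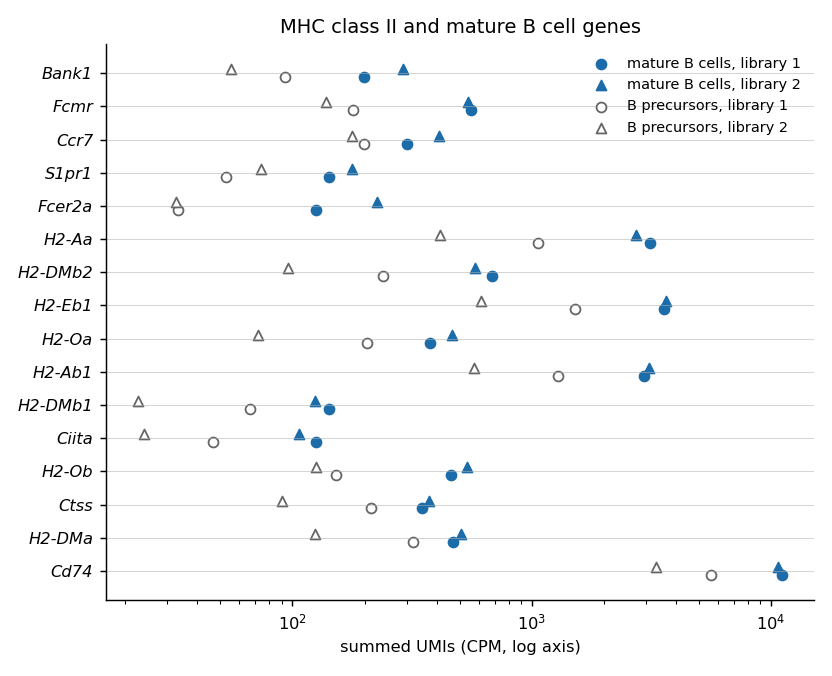
Level (CPM of summed UMIs, log axis) of the 11 measured MHC class II genes and 5 other mature B cell genes, with filled marks for mature B cells, open marks for B precursors, circles for library 1 and triangles for library 2. H2-Aa lies at 3117 and 2715 CPM in mature B cells and at 1066 and 412 CPM in precursors, and the filled marks lie right of the open ones of the same library in every row.

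Genes of resting, recirculating B cells were higher than in precursors. All 8 measured genes of the follicular list were above 0, with a median log2 ratio of 1.33. Of them 3 were past 2-fold in each library: Fcer2a, S1pr1 and H2-DMb2. H2-DMb2 is also on the MHC class II list and was counted there. With 1 surrogate light chain UMI allowed in the members, the median was 2.05 and 5 genes were past 2-fold. Fcer2a, the low-affinity IgE receptor CD23, stood at 125 and 226 CPM in the members and at 33.1 and 32.7 CPM in precursors, a log2 ratio of 2.44. S1pr1, the receptor that lets lymphocytes leave tissue for the blood, stood at 142 and 177 CPM against 53.0 and 74.1 CPM, a log2 ratio of 1.18, and 180 against 92.6 CPM without possible doublets, short of 2-fold. Fcer2a or Cr2, which encodes complement receptor CD21, was found in 38.3% of members (31.2% to 45.9%), 8.62% of precursors and 0 of 121 T cells, which allows a share of up to 2.48%. Fcmr, a receptor for secreted immunoglobulin M, was found in 62.2% of members at 558 and 541 CPM, against 179 and 138 CPM in precursors.

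Genes of the precursor stage were low or not found in the members. All 9 measured genes of the precursor list were at least 2-fold lower in each library, with a median log2 ratio of -3.14. The median was -3.06 with the 3 genes at 0 in the members set to their bound. The surrogate light chain genes of the rule are not among the 9. They belong to the same list and split members from precursors, so the lower level of the 9 is not independent of the choice. Il7r, the receptor for the marrow growth factor interleukin 7, had 0 UMIs in the members and 244 CPM in precursors, at least 32.6-fold more against a floor of 3 UMIs over the group. Rag1 and Dntt, which cut and extend receptor genes, had 0 UMIs in the members and stood at least 8.33-fold and 7.34-fold higher in precursors. Rag1, Rag2 or Dntt was found in 0 of 180 members, which allows a share of up to 1.67%, and in 53 of 348 precursors. Myb, a regulator of blood progenitors, had 1 UMI in the members and 253 CPM in precursors.

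Dividing cells were likewise rare. Of the 17 measured cell cycle genes, 14 were past 2-fold lower in each library, with a median log2 ratio of -3.57, or -3.50 with the 2 genes at 0 set to their bound. Top2a, which untangles DNA in dividing cells, stood at 5.70 and 13.3 CPM in the members and at 199 and 287 CPM in precursors. A UMI of any of 8 mitotic genes was found in 6 members (3.33%) and in 56 precursors (16.1%). Ccna2 and Rrm2, a cyclin and a subunit of the enzyme that makes DNA building blocks, had 0 UMIs in the members and were at least 18.1-fold and 12.3-fold higher in precursors. The mitotic genes Cdca3, Nusap1, Cdca8, Cdc20 and Ccnb1 likewise had 0 UMIs in the members and stood at 65.5 to 135 CPM in precursors.

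Some markers of newly formed B cells were lower as well. Of 6 measured transitional genes, 3 (Cd24a, Cd93 and Spib) were past 2-fold lower in each library and none was higher. The other 3 were close to their precursor level: Ly6d, Cnn3 and Tmsb10 had log2 ratios of -0.32, -0.16 and -0.11, and Ly6d was found in 86.1% of members. Cd24a, a surface protein that declines as B cells mature, stood at 308 and 288 CPM in the members and at 1642 and 1415 CPM in precursors, a log2 ratio of -2.29. Cd93, a marker of recent marrow emigrants, was found in 1.67% of members (0.345% to 4.79%) and in 14.4% of precursors. Among 21 measured B cell transcription factors, Tcf3 and Spib were past 2-fold lower and none was past 2-fold higher in each library. Without possible doublets Spib stood at 205 and 144 CPM against 381 and 427 CPM, short of 2-fold in library 1. Ebf1, at 1556 and 1792 CPM against 4020 and 3070 CPM, had a log2 ratio of -0.93.

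**Figure D4:**
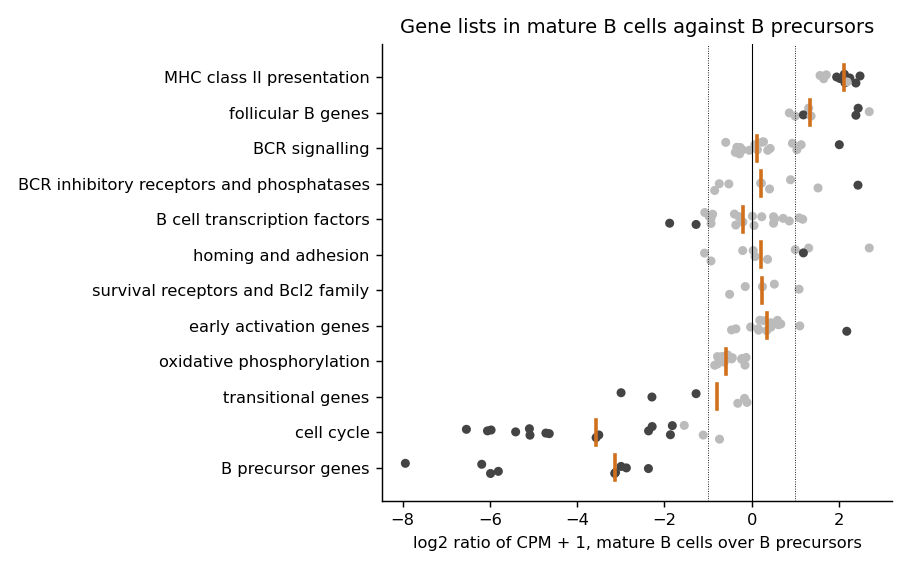
Log2 ratio of CPM plus 1 in mature B cells over B precursors for the measured genes of 12 lists, 1 point per gene. Dark points are genes past 2-fold in the pool and in each library, the orange line is the median of the list, and dotted lines mark 2-fold; the MHC class II median is 2.12 and the cell cycle median -3.57.

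Genes of B cell receptor signalling had no common direction between the stages. Of 17 measured signalling genes, 10 were above 0 and 7 below, with a median log2 ratio of 0.13 that was -0.10 without possible doublets. Bank1, a scaffold that links the receptor to calcium release, was the only one past 2-fold in each library, at 199 and 288 CPM against 92.7 and 55.3 CPM. The kinase Syk had a log2 ratio of -0.38. Among 9 measured inhibitory receptors and phosphatases, Ptpn22, a phosphatase that dampens antigen receptors, was past 2-fold in each library with a log2 ratio of 2.44. Without possible doublets the ratio was 2.32, from fewer UMIs than the minimum of 50. Cd22, an inhibitory co-receptor, had a ratio of 1.52 and was not past 2-fold in library 1. Cd83, an activation-linked surface protein, stood at 439 and 328 CPM against 212 and 57.8 CPM and was the only 1 of 15 measured early activation genes past 2-fold in each library. Cd69, another activation marker, had a ratio of 0.19.

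The other lists held few genes past 2-fold. All 14 measured genes of oxidative phosphorylation, the respiratory chain of mitochondria, were below 0 with a median log2 ratio of -0.59, and none was past 2-fold in each library. The 5 measured heat shock genes were below 0 as well, with a median of -0.31. Of 10 measured homing and adhesion genes S1pr1 was past 2-fold, and of 5 survival genes none was; Bcl2, which blocks cell death, had a ratio of 1.09. No gene of the marginal zone, interferon or innate sensing lists was past 2-fold in each library, with 4, 3 and 3 genes measured. Ly86, a partner of an innate B cell receptor, had a pooled ratio of 1.11 and of 0.33 in library 1. Of 4 measured B1 genes S100a6, a calcium-binding protein, was past 2-fold with a ratio of 1.34, and 48.0% of its UMIs came from 3 members. Without possible doublets it stood at 240 CPM in the members and at 10.5 CPM, from 6 UMIs, in precursors.

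Apoe (chr7:19696109-19699188, minus strand, mm10), which encodes the lipid carrier apolipoprotein E, separated the members from the other lymphocytes in a way that was not limited to possible doublets. It was found in 60.6% of members, 13.2% of precursors, 5.79% of T cells and 12.9% of sustentacular cells. Without possible doublets it was found in 60.5% of members, at 1708 CPM in library 1 and 1402 CPM in library 2, or 1542 CPM over both, against 150 CPM in precursors, a log2 ratio of 3.35. After thinning to 1000 UMIs, 51.1% of members and 10.1% of precursors still held it. With the possible doublets, the top 3 cells carried 64.3% of the Apoe UMIs and the pooled level was 3170 CPM.

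Some other large ratios rested on few cells or few UMIs. Fabp7, a fatty acid binding protein of glia, had a log2 ratio of 7.09 over precursors, and without possible doublets both groups held fewer than 3 UMIs. Sult1e1, a steroid sulfotransferase, had a ratio of 5.15, and without them the members held 0 UMIs and precursors 1. Hcst, an adaptor of activating receptors, March1, a ubiquitin ligase that removes class II molecules from the surface, and Sfn, an epithelial 14-3-3 protein, had ratios of 2.45, 2.39 and 2.61, and of 2.30, 2.67 and 2.60 without possible doublets. Each of these ratios without possible doublets came from fewer UMIs than the minimum of 50. Sfn was found in 12.8% of members and in 54.6% of sustentacular cells, where its level was 135 CPM, and the part of free RNA in its level was not tested.

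Both light chain types were present in nearly every member. A B cell usually keeps either a kappa or a lambda light chain, the product of Igkc or of Iglc1 to Iglc4. An Igkc UMI was found in 96.7% of members and a lambda UMI in 97.8%, and 170 of 180 (94.4%) held both. The median member had 10 Igkc UMIs (0 to 44) and 6 lambda UMIs (0 to 45). With 90% of light chain UMIs required for a type, 9 members were kappa, 6 lambda, 163 mixed and 2 had fewer than 3 light chain UMIs. With 2 in 3 required, 92 were kappa, 22 lambda and 64 mixed, and 81 of the 92 still held Iglc2 while 17 of the 22 still held Igkc.

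**Figure D5:**
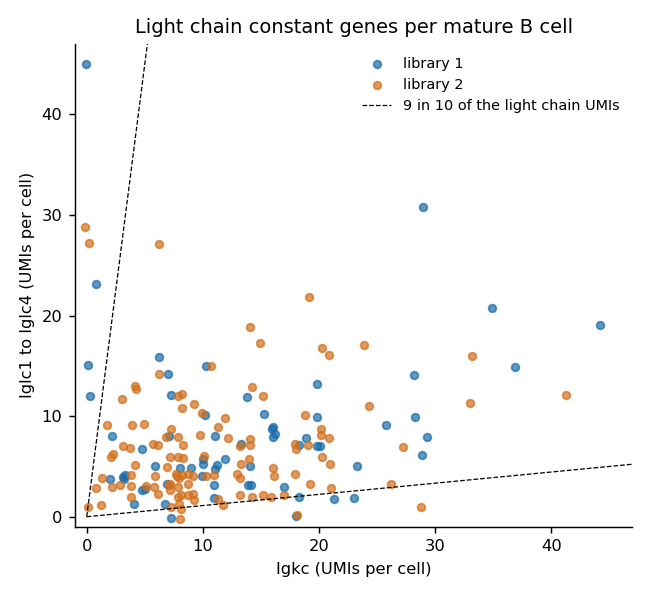
UMIs of Igkc against summed UMIs of Iglc1 to Iglc4 in each of 180 mature B cells, coloured by library and slightly jittered. The dashed lines mark 90% of light chain UMIs of either type, and 163 cells lie between them.

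Light chain UMIs were fewer in T cells and sustentacular cells, which should lack light chains. Of 121 T cells, 1 held an Igkc UMI and none a lambda UMI, at a higher median depth than the members. Of 2466 sustentacular cells, 19.6% held Igkc, 0.568% lambda and 0.162% both, and their Igkc level was 27.5 CPM against 5432 CPM in the members. B precursors held both types in 67.5% of cells, with lambda in 72.4%. Both libraries gave the same picture, with both types in 92.3% of members in library 1 and 95.7% in library 2. Iglc2, at 1744 and 1841 CPM, was found in 92.2% of members and 44.0% of precursors, while Iglc1, at 547 and 501 CPM, was found in 35% and 38.5% with a log2 ratio of -1.01 to precursors that was -0.96 without possible doublets. Iglc2 and Iglc3 are near-identical copies whose reads a counter may split or swap, so their separate values are uncertain. Why both types were counted in the same cells was not tested.

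Switched heavy chain classes were found in few of the chosen members. Ighm, the constant part of immunoglobulin M, was found in 92.8% of members at 1544 and 2049 CPM, and in 97.7% of precursors at 2497 and 2406 CPM. Ighm and Ighd were found together in 75.6% of members, or in 50.6% after thinning to 1000 UMIs. Ighd is a gene of the rule, and 69 members entered on Ighd without Ms4a1. Its share and its counts beside Ighm are therefore in part a description of the choice. So is the share of switched classes, because a cell without Ighd could enter only by Ms4a1. Ighm UMIs outnumbered Ighd UMIs in 111 members, Ighd outnumbered Ighm in 45, and the counts were equal in 24, of which 2 had neither. A UMI of a switched class (Ighg1, Ighg2b, Ighg2c, Ighg3, Igha or Ighe) was found in 3 members, all in library 1, and in 0 of 115 members of library 2, which allows up to 2.61%. Ighm was also found in 23.1% of T cells, at 94.2 CPM. Variable genes were too thinly counted to read: 10 members held any of the 160 Igkv genes and 7 any of the 185 Ighv genes, and a single member could be assigned one with 2 UMIs.

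The genes of plasma, memory and B1 cells given here were found in few members. The plasma cell genes Jchain, Sdc1, Prdm1, Tnfrsf17 or Derl3 were found in 4 members (2.22%), always as 1 UMI, and in 6.49% of sustentacular cells, which were sequenced more deeply. The memory genes Cd80, Nt5e, Pdcd1lg2, Tbx21 or Itgax were found in 5 members (2.78%) and in 1.87% of sustentacular cells. The B1 genes Cd5, Spn, Zbtb32 or Ctla4 were found in 4 members. At a median of 1549 UMIs per cell these shares bound cells with a UMI, not cells that make the protein. The rule left out cells with neither Ighd nor Ms4a1, so the plasma cell share is in part a description of the choice. Other genes of these lists were outside the sets, S100a6 above among them. Mzb1, of the plasma cell and marginal zone lists, stood at 397 CPM in the members. It had 0 UMIs in T cells, at least 51.9-fold less. Zbtb20, of the memory list, had a log2 ratio of 1.33 over T cells.

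Against T cells, the other lymphocytes of the sample, the members differed in their lineage genes. Of 2091 genes measured, 130 (6.22%) were at least 2-fold higher in mature B cells in the pool and in each library and 135 (6.46%) at least 2-fold lower. Without the possible doublets among the members, 110 (6.56%) of 1677 measured genes were higher and 199 (11.9%) lower. With all members, 13 of 14 measured B lineage genes outside the rule were past 2-fold higher. Mef2c, a transcription factor of B cells and myeloid cells, had 1075 CPM in the members and 0 UMIs in T cells, at least 141-fold more, and Fcmr was at least 71.8-fold higher. Trbc2, the constant part of the T cell receptor beta chain, had 0 UMIs in the members and was at least 179-fold higher in T cells, and the cytokine gene Il17a at least 54.8-fold.

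Between the libraries, the members themselves differed in few genes once possible doublets were set aside. With all members, 910 genes were measured, 40 (4.4%) were at least 2-fold higher in library 2 and 31 (3.41%) at least 2-fold lower, with a median log2 ratio of -0.05. The 8 genes named as highest in library 2 included Lyz2, Reg3g, Ccl4, Ccl5 and Fabp7, of which the top 3 members held 95.8% to 100% of the UMIs. In library 1, Wfdc18, a secreted protein of epithelial glands, reached 9323 CPM, with 92.5% of its UMIs in 3 members, and Rgs5, a pericyte gene, 2804 CPM. Several of these genes are best known from other cell types, and the libraries held 5 of 65 and 23 of 115 possible doublets.

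Without the 28 possible doublets, 11 genes were past 2-fold higher and 2 lower among 547 measured. Of these 13 genes, 9 were past 2-fold in the same direction with all members and 2, Wfdc18 and Scgb1c1, in the opposite direction. Cxcr4, the receptor that holds B cells in marrow and lymphoid tissue, stood at 296 CPM in library 1 and 646 CPM in library 2, and Cd22 at 140 and 419 CPM. Mpc1, a mitochondrial pyruvate carrier, stood at 361 and 144 CPM, and Capzb, an actin capping protein, at 468 and 165 CPM. Wfdc18, at 41.1 and 708 CPM, had the same order in all precursors (59.6 and 569 CPM) and all T cells (21.7 and 700 CPM). Those precursor and T cell values include possible doublets. With all members the order was the reverse, at 9323 and 643 CPM, so the 3 kinds of lymphocyte are not compared on like sets. In sustentacular cells Wfdc18 stood at 2295 and 2752 CPM. The odorant-binding protein gene Obp2a stood at 8.21 and 406 CPM in the members. Scgb1c1, Capzb and Obp2a fall outside the rule for named genes and were chosen after their values were seen. The part of free RNA in these differences was not tested. Itga4, an integrin chain for entry into tissue, kept a log2 ratio of 1.52 without possible doublets but fell below the UMI minimum.

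Of the 10 MHC class II genes measured between the libraries none was past 2-fold, with log2 ratios from -0.25 to 0.31. H2-Aa was 3117 CPM in library 1 and 2715 CPM in library 2, H2-Eb1 3556 and 3637 CPM, and Cd74 11129 and 10712 CPM. In the precursors the Cd74 level was 5590 CPM in library 1 and 3315 CPM in library 2.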

How the data were processed

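The deposited matrix holds UMI counts per gene and cell barcode, which the authors made with Cell Ranger 3.0.2 on mm10, per the submitters' processing notes, with both libraries joined; the sources used here do not say whether depth was equalised on joining. Barcodes with at least 1000 UMIs, 500 genes and at most 10% mitochondrial UMIs were kept (8298 of 12491). Counts were summed per group and library and scaled to 1000000 (CPM); log2 ratios used a pseudocount of 1 CPM. Genes of the rule, mitochondrial and olfactory receptor genes were left out. No doublet caller was run; possible doublets were marked by UMIs of other cell types. Gene symbols came from the file, and 31011 of 31053 feature IDs matched GENCODE M21. The genes named were the 12 largest ratios in each direction against precursors and the 8 largest against T cells and between libraries, at 50 CPM or more, plus members of 32 lists. Members and lists were chosen with earlier results of these data known, and some lists came from that earlier work. The alternatives are a looser or stricter cell filter, membership rule, gene filter, pseudocount, scaling and light chain share; allowing 1 surrogate light chain UMI was added after seeing the data. Exact 95% intervals and the limit of 3 counts behind a 0 cover counting error only. The scripts were tested on simulated data (numpy 2.4.6 and pandas 2.3.3 for the sums, scipy 1.17.1 for the intervals and matplotlib 3.10.9 for plots, under Python 3.11.15). Results for some genes are not reported here.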

Additional observations from a re-analysis of the deposited data

How the results depend on the processing

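No paired analysis was possible because each side has 1 library and no result comes from a test. The share of mature B cells in library 1 and library 2 was 1.51% and 1.76% with no cell filter, 0.558% and 0.387% at 2500 UMIs or more, and 0.825% and 1.01% when both Ighd and Ms4a1 were required. It was 3.24% and 2.09% at no more than 5% mitochondrial UMIs, 1.98% and 1.75% without possible doublets, and 2.47% and 3.04% with 1 surrogate light chain UMI allowed; library 1 had the higher share in the first 2 of these, at 2500 UMIs and at a Cd79a and Cd79b sum of 4 (2.04% and 2.03%). Kappa cells at 90% were 0% at 2500 UMIs, 1.28% with both genes and 51.1% at 2 in 3 of light chain UMIs; mixed cells were 35.6% at 2 in 3 and 77.2% with at least 10 light chain UMIs. Ighm and Ighd together were found in 92.3% with both genes required, 21.1% at 3 UMIs and 50.6% after thinning, and a switched class in 9.38% at 2500 UMIs and 0% after thinning. Igkv assignment was 3.13% at 2500 UMIs, 0% at 5% mitochondrial UMIs, with both genes or without possible doublets, and 5.56% at 1 UMI, where Ighv reached 3.89%. Genes past 2-fold higher between the libraries were 14 at 5% mitochondrial UMIs, 11 without possible doublets, 3235 with no gene filter and 68 with 1 surrogate UMI allowed; lower, 13, 2 and 2732 under the first 3 of these, and 8 at a Cd79a and Cd79b sum of 4, with both genes, or by mean per-cell CPM. Against precursors, 35 were higher at 2500 UMIs and 514 with no gene filter, and 358 lower with both genes and 1055 with no gene filter. Against T cells, 45 were higher and 79 lower at 2500 UMIs, 57 higher at 5% mitochondrial UMIs, 59 higher with both genes, and 1027 higher and 990 lower with no gene filter. Ratios were recomputed where both groups together held at least 4 UMIs, and those of single genes that turned direction were all between the libraries: at 5% mitochondrial UMIs Rgs5 (2.74), Wfdc18 (4.19) and Anxa1 (2.80); at a Cd79 sum of 4 Rgs5 (1.58), Wfdc18 (4.03), Anxa1 (2.63), Sult1e1 (6.48) and Tagln2 (0.45); with both genes Wfdc18 (3.96), Anxa1 (2.64) and Sult1e1 (6.66); without possible doublets Apoe (-0.28), Rgs5 (1.28), Wfdc18 (4.08), Anxa1 (1.49) and Tagln2 (0.064); by mean per-cell CPM Wfdc18 (0.10), Anxa1 (0.49), Sult1e1 (0.21) and Tagln2 (0.33). Each alternative with fewer cells tested fewer genes; the cause of the other changes was not tested. At a median of 1549 UMIs per member, a gene at 0 is bounded only to 7.48 CPM over the group.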
